A study of Arabidopsis thaliana with 16 samples.

Results

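The HSP100 and HSP60 chaperone genes of Arabidopsis are described here by the peaks of HSFA1b binding at 6 loci, which are HSP101 (AT1G74310), CLPB3 (AT5G15450), CLPB4 (AT2G25140), HSP60 (AT3G23990), HSP60-2 (AT2G33210) and HSP60-3A (AT3G13860). They were chosen by family membership and not by their binding, out of 27444 protein-coding genes on chromosomes 1 to 5. A peak belonged to a gene when its interval overlapped the gene or 1 kb on either side of it, and it entered the main set with a q-value of at most 0.05 and a fold enrichment (FE) of at least 2. FE is the pileup of immunoprecipitated fragments at the summit divided by the background expected there, as the peak caller wrote it.

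HSFA1b is a class A heat shock factor, and its binding was mapped by ChIP-seq in fully expanded leaves of Col-0 plants aged 5 weeks. In NP:HSFA1b plants an extra genomic copy fused to eYFP ran from its native promoter and was precipitated with antibody to GFP, with untransformed Col-0 as the control. In 35S:HSFA1b plants an RFP fusion ran from the strong viral 35S promoter and was precipitated with antibody to RFP, and the genotype of its control plants is not described in the labels. Plants were either held at 23 °C and 60% relative humidity (NS) or given 30 min at 37 °C and 86% relative humidity (HS), which gave 8 groups of 2 samples, 16 in all. Both constructs were studied in a transformed line that keeps its own HSFA1b gene, so that the tagged protein is additional to the native one, and the NP line had the least fusion protein of the lines surveyed. The 2 libraries of a construct and condition were pooled before peaks were called, so that each construct has an NS and an HS list, 4 in all. Every value below stands without replicate error and no test between conditions was possible.

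HSP100 proteins of the ClpB class are ring-shaped ATPases that thread aggregated proteins through a central pore and release them for refolding. HSP101 works in the cytosol and nucleus and is required for acquired thermotolerance, CLPB3 works in chloroplasts and CLPB4 in mitochondria. HSP60 proteins are the subunits of the mitochondrial chaperonin, a barrel in which imported proteins fold and which is closed by a lid of the CPN10 co-chaperonin. Heat shock factors bind heat shock elements (HSEs), which are arrays of alternating GAA and TTC triplets.

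The sequences below show, for 5 of the genes, the HSE of 3 repeats with 1 mismatch closest to the promoter summit, because in 3 of them it was centred within 50 bp of the NP HS summit. They are from the RefSeq copy of TAIR10 (assembly TAIR10.1), 30 bases each, 5′ to 3′ on the strand of the gene. Capitals mark the fixed positions of the element, including the base that differs where the element has 1 mismatch. At HSP101 no 3-repeat element with up to 1 mismatch lay within 100 bp of the promoter summit of either NP list, and the capitals there mark an HSE of 2 repeats (GAANNTTC) next to a G-box (CACGTG).
HSP101, chr1:27940319-27940348, minus strand: aaataagcGAAaaTTCCACGTGacatctac
CLPB3, chr5:5018461-5018490, minus strand: tcccgatggTTCacGAAgaCTCcggcgtcg
CLPB4, chr2:10702134-10702163, minus strand: tcatcactgGAAacTTCtcGATgaaatgac
HSP60, chr3:8668860-8668889, plus strand: gcagctgcTTCtaGACtcTTCtccttcgct
HSP60-2, chr2:14078680-14078709, minus strand: ccctactgcTTAtaGAAtcTTCgacgatct
HSP60-3A, chr3:4565252-4565281, minus strand: gagcacaaaGAAagTTCcaGACtattagct

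Each of the 5 elements with 3 repeats differed from GAANNTTCNNGAA or TTCNNGAANNTTC at 1 base. Counted from the 5′ end of the element on the strand of the gene, with the base of the pattern first, the differences were T11C at CLPB3, A13T at CLPB4, A8C at HSP60, C3A at HSP60-2 and A13C at HSP60-3A. The mismatch thus fell in an outer triplet in 4 of these genes and in the middle triplet at HSP60. The CLPB3 element lay upstream of the gene and the other 5 stretches lay in 5′ UTRs. At HSP101 this holds for the transcript that starts at position 27940369. The stretch lay upstream of the other RefSeq transcript, which starts at 27940309.

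Depth differed between the pools, with 6783161 (NS) and 2438702 (HS) treatment fragments for NP and 19579327 (NS) and 13481546 (HS) for 35S, against 1139036 to 12760222 control fragments. The main sets held 870 (NS) and 1175 (HS) peaks for NP, with median FE of 2.95 and 4.56, and 3411 (NS) and 1322 (HS) for 35S, with 2.29 and 2.19. Median width was 351.5 bp and 299 bp in the NP lists but 1583 bp and 3028.5 bp in the 35S lists, so that the mere presence of a 35S peak says less about a gene. FE also differed in scale between the constructs. The lowest background was 92.3 fragments in 35S NS, where mean treatment coverage was 31.1, while in NP HS both were 3.59. A lower FE in a 35S list is therefore not a measure of weaker binding than in an NP list.

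HSFA1b from the native promoter was found at the promoters of 5 of the 6 genes under HS, with FE from 3.92 to 7.41 at the promoter, and at 1 gene, HSP101, under NS. Among all protein-coding genes, 4.11% had a main-set peak in the gene or 1 kb of it in NP NS and 5.6% in NP HS. Without the FE limit the members' counts were again 1 and 5, beside 4.27% and 5.62% of all genes. All 5 genes had a summit at most 250 bp from the start of transcription (TSS) under HS, where 2.02% of all genes did, and HSP101 had one under NS, where 0.911% did. A main-set peak under HS together with no deposited peak under NS was present at 4 members, CLPB3, CLPB4, HSP60 and HSP60-3A, and at 3.54% of all genes. HSP60-2 was the member without a peak in either NP list.

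**Figure D1:**
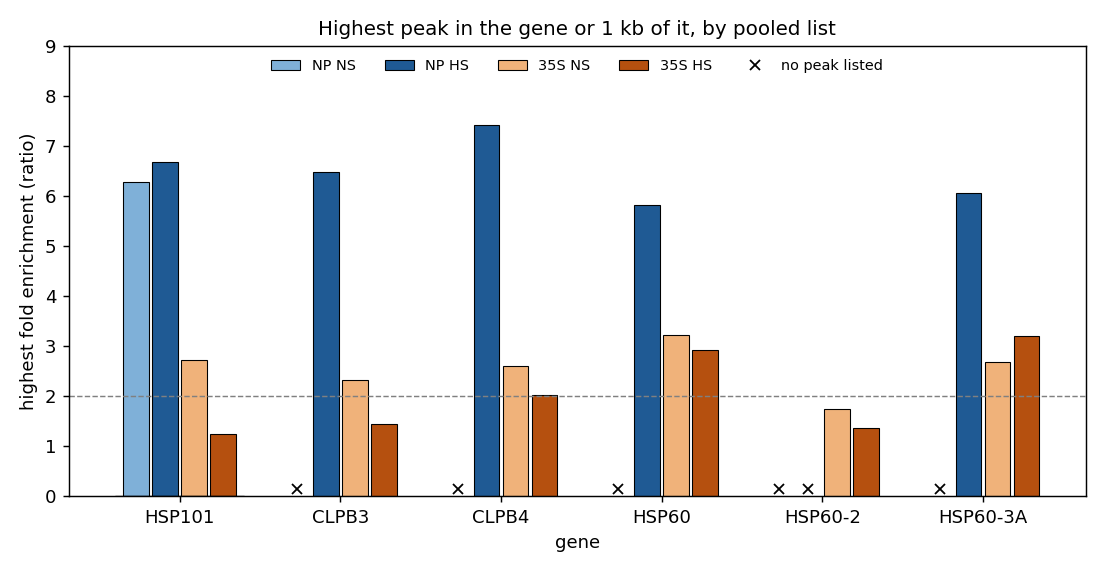
Bars give the highest FE (a ratio, linear axis from 0) of the peaks in each gene or 1 kb of it, for the 4 pooled lists. Crosses mark lists with no peak and the dashed line is the FE limit of 2. The NP HS bars reach 5.82 to 7.41 at 5 genes, no 35S bar exceeds 3.23, and HSP60-2 stays below 2 throughout. FE differs in scale between the constructs, so NP and 35S bars cannot be compared as amounts of binding. There are no error bars because each list was called once from pooled libraries.

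HSP101 (chromosome 1, 27936508 to 27940369, minus strand) was the member bound under both conditions. Its NP NS peak had FE 6.28, a pileup of 73 fragments and rank 26 among the 870 NP NS peaks, with a summit 111 bp inside the gene from the TSS. The NP HS peak at the same place had FE 6.68 and a pileup of 47 fragments, with rank 225 among the 1175 NP HS peaks. The NS and HS summits lay 51 bp apart. RefSeq gives HSP101 a second transcript that starts at position 27940309, and measured from there the summits lay 51 bp (NS) and 102 bp (HS) inside the transcript. The start of AT1G74320, a gene on the other strand, lies 225 bp from that of HSP101, and neither NP peak reached it.

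The log2 change of FE from NS to HS at HSP101 was 0.09. At all 372 NP peaks called under both conditions the median was 0.63, with quartiles of 0.22 and 1.10, so that the change at HSP101 lay below the lower quartile. Per 1000000 treatment fragments, however, the HSP101 summit held 10.8 fragments under NS and 19.3 under HS, a log2 change of 0.84 against a median of 0.29. The measures differ because FE also takes in the background at the summit, recovered from pileup and FE. That background was 10.8 fragments under NS, close to the lowest of the NS list (10.6). Under HS it was 6.19 fragments, above the lowest of the HS list (3.59). The pools held 6783161 (NS) and 2438702 (HS) treatment fragments, so that per treatment fragment the background was higher under HS.

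The HSP101 promoter peak was 408 bp wide under NS and 1360 bp under HS, and under HS 3 more peaks followed along the gene. Their summits lay 2070 bp, 3306 bp and 3895 bp from the TSS, in a coding exon, in an intron and just past the 3′ end, with FE of 2.79, 2.63 and 2.48 and ranks of 1133 to 1160 among 1175. Their pileups of 29, 41 and 36 fragments lay within the range of the members' promoters (17 to 47), but the background there was 9.75, 14.99 and 13.9 fragments, the highest of the 9 NP HS peaks at the members. Peaks covered 63.6% of the HSP101 gene in NP HS, or 31.3% without the promoter peak, which is wider than 1000 bp, and 8.42% in NP NS. The study treated broad peaks over highly transcribed genes as false positives, transcription was not used here, and the part of such signal in the cover of HSP101 was not tested.

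**Figure D2:**
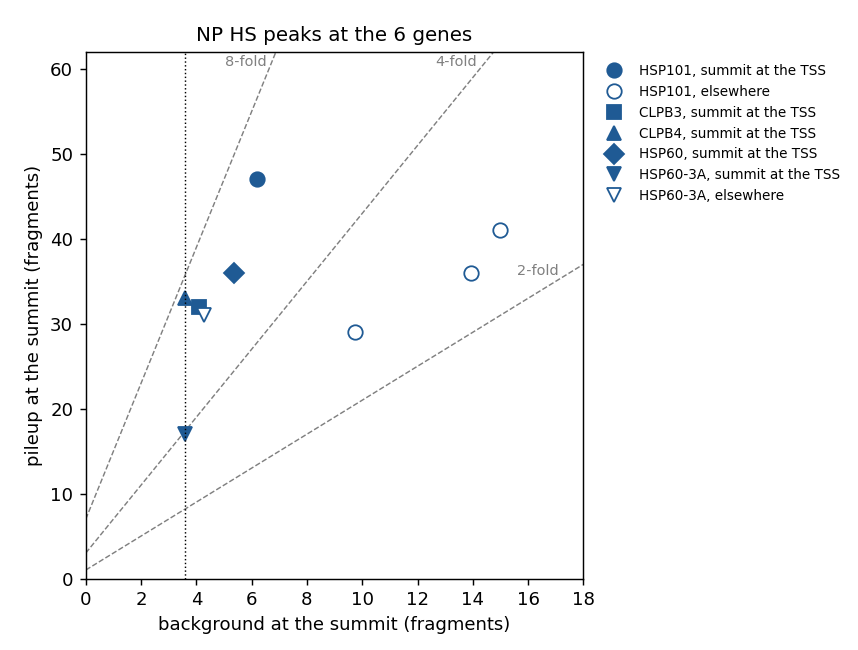
Each point is 1 of the 9 NP HS peaks at the members, placed by the background (x) and the pileup (y) at its summit, both in fragments. Filled symbols have summits within 250 bp of the TSS, open symbols lie elsewhere, dashed lines mark equal FE and the dotted line is the lowest background of the list (3.59). The 3 open circles of HSP101 sit at backgrounds from 9.75 to 14.99, to the right of all promoter peaks.

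CLPB3 (chromosome 5, 5014212 to 5018347, minus strand), which encodes the chloroplast disaggregase, had a single NP HS peak of 439 bp with FE 6.48 and a pileup of 32 fragments, and no NP NS peak. The summit lay 106 bp upstream of the TSS, and among the promoter summits of the NP lists that of CLPB3 was the one outside the transcribed region. The stretch of 131 bases around it (chr5:5018403-5018533, minus strand) is shown because it lies outside annotated transcripts and holds, in capitals, a G-box and a 2-repeat HSE.
CLPB3 upstream: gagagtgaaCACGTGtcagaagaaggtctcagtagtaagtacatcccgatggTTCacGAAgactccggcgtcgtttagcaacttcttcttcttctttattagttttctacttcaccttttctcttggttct
The centre of the 2-repeat HSE was 24 bp and that of the G-box 68 bp from the NP HS summit. The 35S NS summit lay further upstream, 184 bp from the TSS, and was 54 bp from the HSE and 10 bp from the G-box.

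At CLPB4 (chromosome 2, 10697629 to 10702203, minus strand), the gene of the mitochondrial disaggregase, the NP HS peak had the highest FE of the 6 genes, 7.41, with a pileup of 33 fragments over the lowest background of the list and rank 155. It was 322 bp wide and its summit lay 56 bp inside the gene. The centre of the 1-mismatch HSE was 1 bp from that summit, the closest of the members, and a second 1-mismatch HSE was centred 24 bp away. NP NS held no peak there.

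HSP60 (chromosome 3, 8668772 to 8672578, plus strand) carried an NP HS peak of 414 bp with FE 5.82, a pileup of 36 fragments and rank 315, and none under NS. The summit lay 137 bp inside the gene in the 5′ UTR, 35 bp from the centre of its 1-mismatch HSE. BLI starts 732 bp away on the other strand.

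HSP60-3A (chromosome 3, 4561517 to 4565335, minus strand) had 2 NP HS peaks. The promoter peak, 6 bp inside the gene, had FE 3.92 and a pileup of 17 fragments, the lowest promoter value of the 5 bound members and below the median of the NP HS main set. The second, with FE 6.06 and 31 fragments, lay downstream of the gene, 4238 bp from its TSS. Its summit was 15 bp before the start of U6-26 (AT3G13855), a gene for U6 small nuclear RNA, and 10 bp before that of AT3G13857, an overlapping gene model on the same strand. The value of 6.06 that stands for HSP60-3A in the plot of highest FE therefore belongs to a site at the end of the gene, and by its promoter alone HSP60-3A ranked lowest of the 5. Within 100 bp of a gene, NP HS summits were found at 4 of 82 snRNA genes (4.88%) and at 774 of 27444 protein-coding genes (2.82%). They were also found at 27 of 625 tRNA genes (4.32%), 57 of 3480 lncRNA genes (1.64%) and 0 of 287 snoRNA genes. Gene length was not matched, and the counts were made after the value at U6-26 had been seen.

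HSP60-2 (chromosome 2, 14074767 to 14078772, minus strand) shares its promoter with AT2G33220, whose TSS lies 78 bp away on the other strand, and neither NP list held a peak in the gene or 1 kb of it. Its 1-mismatch HSE lay 68 bp from the summit of a weak 35S NS peak. The lowest FE called at the lowest background was 2.15 in NP NS and 2.83 in NP HS, so that a site on that background with a lower value was in neither list. The same limit bears on the 4 members without an NP NS peak, whose promoter FE under HS ran from 3.92 to 7.41. Those HS values cannot be set directly against the NS limit of 2.15. FE was higher under HS at 86.8% of the peaks shared by the NP lists, with a median log2 change of 0.63. Whether weaker NS sites at these members went uncalled was not tested. The NS pool, with 2.78 times the treatment fragments of the HS pool, was the deeper of the NP pools.

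**Figure D3:**
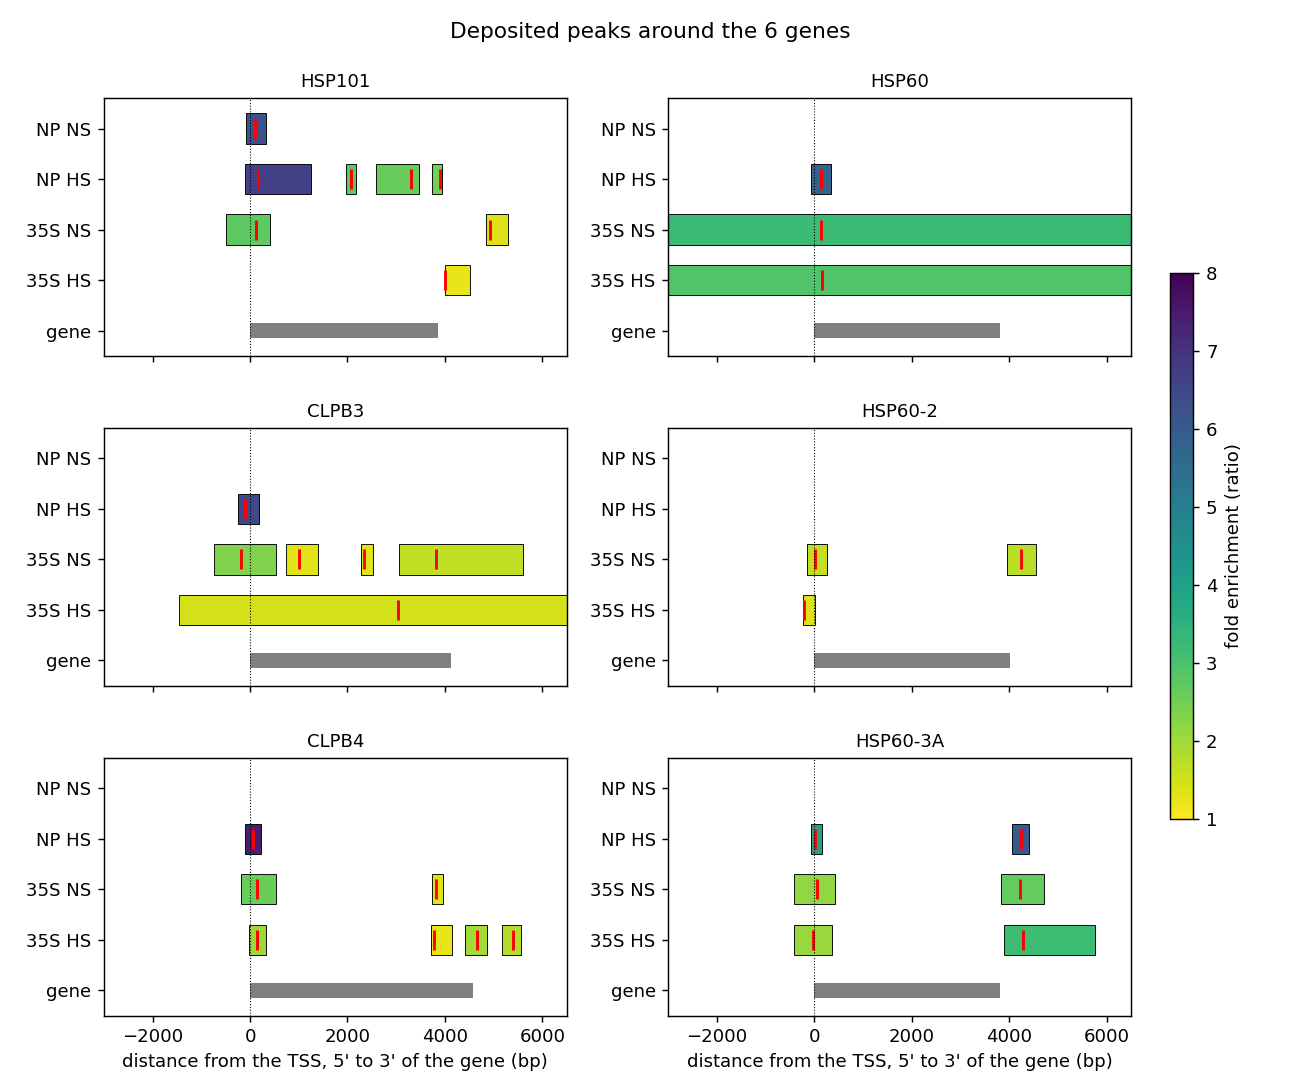
Boxes are the deposited peaks of the 4 lists at each gene, placed by distance from the TSS in bp in the direction of transcription, coloured by FE, with summits as red lines and the gene as a grey bar. Peaks wider than the frame are cut at its edges. NP peaks are narrow and at the TSS apart from those along HSP101 and the downstream peak of HSP60-3A, whereas the 35S peaks of HSP60 (22422 and 10810 bp) run past the whole gene.

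With the overexpressed protein, main-set peaks were present at 5 of the 6 genes in 35S NS, where 34.5% of all protein-coding genes had one, and at 3 of the 6 in 35S HS, beside 18.1%. Any deposited peak with its summit outside the pericentromeres was found at all 6 members in both lists, beside 69.5% and 49.2% of all genes. A main-set summit within 250 bp of the TSS was more selective, with 5.64% of all genes in 35S NS and 1.99% in 35S HS, and the members' counts were again 5 and 3. The 5 members were the same as in NP HS, and HSP60-2 was again the one left out.

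In 35S NS the highest peaks of the 5 genes had FE of 3.23 at HSP60, 2.72 at HSP101, 2.69 at the downstream site of HSP60-3A, 2.60 at CLPB4 and 2.33 at CLPB3. The promoter peak of HSP60-3A had 2.15. At HSP60-2 the values were 1.75 downstream of the gene and 1.64 at the TSS, below the limit of the main set. HSP60 ranked 118 of 3411 and the others between 573 and 1535 by their highest peak. All 13 peaks at the members stood within 1% of the lowest background of the list (92.3 fragments), so that differences in FE among them reflect the pileup alone.

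In 35S HS, HSP60 (FE 2.92, rank 50 of 1322) and CLPB4 (2.03) had a main-set peak at the promoter, and HSP60-3A had one at the promoter (2.07) and one at the U6-26 site (3.21, rank 22). HSP101, the member with an NP NS peak, had no 35S HS peak in the gene, and the only one within 1 kb was downstream with FE 1.24. That downstream peak stood on a background of 82.1, and at the lowest background of 35S HS (46.5) the lowest FE called was 1.33. CLPB3 was covered from end to end by 1 peak of 7991 bp with FE 1.45, whose summit lay 3040 bp inside the gene. HSP60-2 had a peak of FE 1.37 whose summit, 218 bp upstream of its TSS, was nearer to the start of AT2G33220, 140 bp away.

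The summits of the constructs fell close together at the promoters. Between NP HS and 35S NS the distance was 0 bp at HSP60, 33 bp at HSP101, 49 bp at HSP60-3A, 78 bp at CLPB3 and 89 bp at CLPB4. Between NP HS and 35S HS it was 24 bp at HSP60, 37 bp at HSP60-3A and 82 bp at CLPB4. At CLPB4 both 35S summits lay further into the gene than the NP summit, at 145 bp and 138 bp from the TSS.

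Both 35S lists had a main-set promoter peak at 3 members. The log2 change of FE from NS to HS there was −0.14 at HSP60, −0.06 at HSP60-3A and −0.36 at CLPB4, beside a median of −0.32 (quartiles −0.49 and −0.14) over 1112 peaks shared by the 35S lists. The downstream site of HSP60-3A went the other way, with 0.26, where 10.97% of the shared peaks lay above 0. The overlapping pair at CLPB3 gave −0.68, but its summits were 3224 bp apart. By summit pileup per treatment fragment the CLPB3 pair went the other way, with a log2 change of 0.60. The background at its HS summit was 112 fragments, above the lowest of 35S HS (46.5). By pileup per fragment the 3 promoter pairs stayed below 0, with −0.11 at HSP60, −0.03 at HSP60-3A and −0.34 at CLPB4. The 35S NS call used 4 control libraries and the 35S HS call 2, and the calls share 2 of them. A shared library cannot match the condition of both lists, and the labels do not tell which condition it had. The effect on these changes was not tested.

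Peaks covered a median of 4.59% of the member genes in NP HS, with 0 for all protein-coding genes, and between 4.03% and 9.01% at CLPB3, CLPB4, HSP60 and HSP60-3A. In 35S NS the median was 13.8% for the members and 11.7% for all genes, whose mean was 36.1%. In 35S HS the median was 14.6% for the members and 0 for all genes, whose mean was 30.2%, and the members' median was 3.52% with peaks of FE of at least 2 and 0.11% without peaks over 1000 bp. The 35S values ranged from 7.39% to 100% under NS and from 0 to 100% under HS, and HSP60 was covered in full in both.

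An HSE of 3 repeats without a mismatch (GAANNTTCNNGAA or TTCNNGAANNTTC, both strands) lay within 50 bp of a main-set summit at 0 of the 6 genes in all 4 lists. Such an HSE was present at 5.19% of the NP HS summits, 3.33% of the NP NS summits, 1.495% and 1.13% of the 35S NS and 35S HS summits, and 0.164% of windows of the same length (101 bp) ending at the TSS of all protein-coding genes. Those windows lie upstream of the TSS, whereas the NP promoter summits of the members apart from CLPB3 lay inside the gene. With 1 mismatch allowed, CLPB3, CLPB4 and HSP60 had a match in NP HS, beside 19.9% of NP HS summits and 3.16% of the windows at all genes. With 2 repeats (GAANNTTC or TTCNNGAA, which the longer elements can contain) CLPB3, CLPB4 and HSP60-3A had one, beside 21.1% and 6.48%. HSP101 had neither within 50 bp of a promoter summit, since its 2-repeat HSE was 78 bp and its G-box 72 bp from the NP NS summit. The G-box lay within 50 bp of the 35S NS summit at CLPB3, beside 11.1% of all 35S NS summits. A match is a description of the sequence and does not locate the bound base.

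Related chaperone families were read the same way. The other Clp ATPases, which are the short ClpB-related CLPB2 and the partners of the Clp proteases in chloroplasts and mitochondria, had a peak in the NP lists at 0 of 7 genes. Among the 6 chloroplast chaperonin genes, CPN60B2 had FE 6.23 under NS and 9.20 under HS, CPN60A1 had 4.98 under HS alone, and the other 4 had none. Among the 5 organellar co-chaperonins, which form the lid of the chaperonin barrel, CPN10 of mitochondria had 7.92 under NS and 9.45 under HS. CPN20 of chloroplasts had 9.58 and 14.2, above each of the 6 members in both lists, and the other 3 had none. Of the 9 genes of CCT, the cytosolic chaperonin which like HSP60 folds proteins inside a double ring, CCT3 had a peak (5.23, HS alone), in its 3′ UTR and 3830 bp from the TSS.

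The gene of the mitochondrial co-chaperonin thus had NP peaks under both conditions, while HSP60 and HSP60-3A had NP peaks under HS alone. In the chloroplast the co-chaperonin CPN20 and the subunit gene CPN60B2 had peaks under both conditions and CPN60A1 under HS alone. The summits of CPN20 lay 55 bp and 48 bp upstream of the TSS, and a 1-mismatch HSE was centred 19 bp and 12 bp from them. At CPN10 the 1-mismatch HSE was centred 3 bp from the NS summit and 14 bp from the HS summit.

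**Figure D4:**
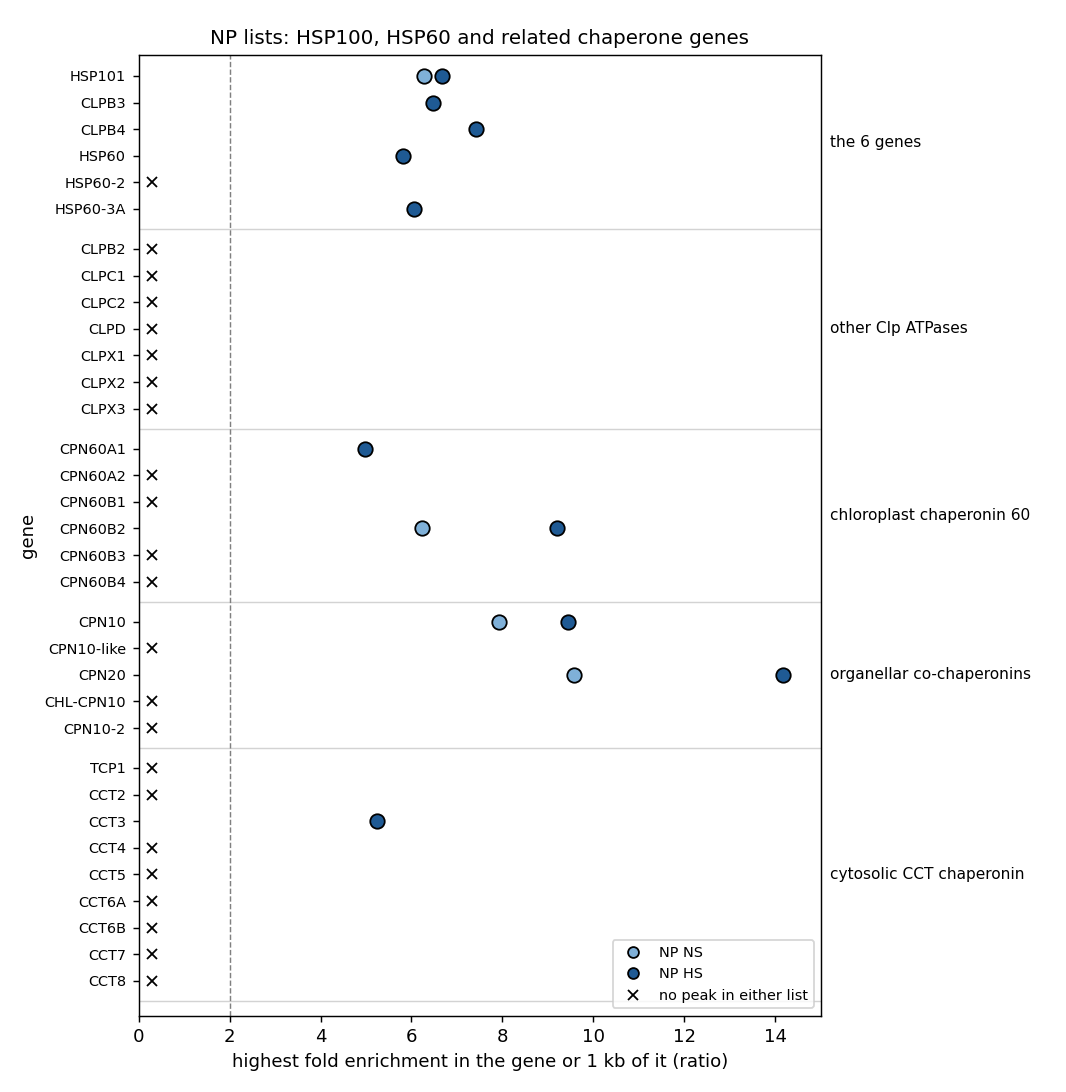
Points give the highest FE (a ratio, linear axis from 0) in each gene or 1 kb of it in NP NS (light) and NP HS (dark), crosses mark genes with no peak in either list, and the dashed line is the FE limit of 2. Points lie at 5 of the 6 members, 0 of 7 other Clp ATPases, 2 of 6 chloroplast chaperonin genes, 2 of 5 co-chaperonin genes and 1 of 9 CCT genes, and the farthest right is CPN20 at 14.2.

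The genes whose pattern over the 4 lists was most like that of a member were found by the Euclidean distance between log2 FE values, with 0 for no peak, over all protein-coding genes that share no peak with the member. CLPB3 was nearest to AT3G53220 (distance 0.08), AT1G27090 (0.13) and ROF1 (0.15), a peptidyl-prolyl isomerase. CLPB4 was nearest to AT3G10030 (0.08), TRP1 (AT5G59430, 0.13) and OXS2 (0.15). HSP60 was nearest to AT1G67350 (0.11), C4H (0.20), an enzyme of the phenylpropanoid pathway, and GFA2 (0.22), a mitochondrial J-domain protein. HSP101 had no neighbour as close, since ML4, LAX1 and SHV3 stood at 0.42 to 0.45 from it. For HSP60-3A the pattern rests on the U6-26 site, and MGP3 and BIM2, at 0.13 each, had the same 4 values as each other.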

How the data were processed

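Leaves of NP:HSFA1b, 35S:HSFA1b and control plants were used for ChIP-seq under NS and HS. Paired-end reads were placed on TAIR10 by the authors with GSNAP and, by their account, freed of duplicates. MACS2 (2.0.10.20131028 per the file headers) was run on 2 pooled treatment libraries per list, against 2 pooled control libraries, or 4 for 35S NS. The caller still gave redundant rates from 31% (NP NS) to 46% (35S HS) in treatment. In control they ran from 44% (NP NS) to 64% (35S HS). The fragment numbers given here are those kept after its filtering. The authors pooled plants of a single heat experiment. The deposited values are the pileup signal at each summit (coverage by fragments), the fold enrichment (a ratio, with a pseudocount of 1) and −log10 of p and q. How reads with several matches were placed is not given in the sources used here.

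Background was recovered as (pileup + 1)/FE − 1, and 35S HS pileups, multiples of 0.721, were divided by that step to give fragments. Peaks with summits in pericentromeres were left out of the main set and of the counts and cover of any deposited peak. Protein-coding genes there stayed in the total of 27444. A pericentromere was taken as the stretch around each centromere where windows of 500 kb held under 50% of the median of 130 protein-coding genes. The precision of each value is limited by the fragments in its pool, given in the report, and no interval between plants can be had. Peaks were matched to RefSeq TAIR10.1 genes, the same nuclear assembly as TAIR10, with Python 3.11.15, numpy 2.4.6 and pandas 2.3.3, and the functions were tested on simulated data. No test was run, and the members' main counts are given beside shares over all genes, peaks or windows. Alternatives were the FE limit, the gene window, the summit rule, wide peaks, the measure of change and the HSE definition. All 6 members are named, of the related lists only genes with an NP main-set peak are named, apart from CLPB2 and 3 genes under wide 35S peaks, and at most 3 similar genes per member. The members, lists and rules were chosen with earlier results of these data known. The narrow-peak and summit files repeat the same calls and were not used.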

Additional observations from a re-analysis of the deposited data

How the results depend on the processing

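Of 54 alternatives, 39 left a result within its limits (a count within 1.5 times), 14 moved one and 1 turned a direction. The counts of members with an NP peak stayed at 1 (NS) and 5 (HS) under all alternatives run. Those of the 35S lists depended on FE. With FE of at least 3 the count was 1 in both 35S NS and 35S HS, without an FE limit it was 6 in 35S HS in place of 3, and without peaks over 1000 bp it was 3 in 35S NS in place of 5. The summit rule of 250 bp was added after the data were seen and moved no count. The NS to HS change at HSP101 in NP was 0.84 by pileup per fragment and −0.53 by −log10 q, which turned its direction. The median 35S change over the members, −0.35 by FE, was −0.20 by pileup per fragment and −2.36 by −log10 q. These medians take the highest value in each gene window, whatever its site. At HSP101 they set a promoter peak under NS (FE 2.72) against a downstream peak under HS (FE 1.24). By overlapping peak pairs the median was −0.26. The median 35S HS cover, 14.6%, was 3.52% with FE of at least 2 and 0.11% without peaks over 1000 bp. With 1 mismatch, members with an HSE at a summit numbered 3 (NP HS) and 2 (35S NS, beside 6.95% of its summits), and with 2 repeats 3 (NP HS) and 1 in each 35S list (beside 11.2% under NS and 8.17% under HS), in place of 0. No paired analysis was possible because the libraries were pooled before peaks were called, and no replicate could be left out for the same reason. NP HS values rest on 2438702 fragments, the fewest of the 4 pools.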

Other observations

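CLPX3, a mitochondrial partner of the Clp protease, had its FE of 2.59 in 35S HS from a peak of 165257 bp whose summit lay 60760 bp from its TSS. At CPN60B1 the 35S NS peak was 4645733 bp wide with a summit 288704 bp from the TSS, and at CPN10-like it was 298877 bp wide. These genes were counted among those with a 35S main-set peak although no summit lay near them, and were named after their values had been seen. With a summit within 250 bp of the TSS, the counts in 35S HS were 0 of 7 for the other Clp ATPases in place of 1, and in 35S NS 3 of 6 for the chloroplast chaperonins in place of 6 and 0 of 9 for CCT in place of 5.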
